A study of Homo sapiens with 4 samples.

Results

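The 77 genes described here encode proteins of the mitochondrial ribosome, and they were followed in RNA recovered by a miRNA pull out from DU-145 cells. Members were chosen by symbol alone, as protein-coding RefSeq records (NM_) named MRPL or MRPS with a number and at most 1 letter. They comprised 77 of the 18794 genes named in the deposited records, 49 of the large subunit (MRPL) and 28 of the small subunit (MRPS) by symbol, with 124 of the 42115 NM_ records.

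DU-145 is an established human prostate carcinoma cell line. In the control arm, miR-28CT, cells received the miR-28-5p duplex without a tag at 60 nM. In the other arm, miR-28BIO, the same dose was made up of duplexes that carried biotin at the 3′ end and a thiouridine at nucleotide 8 or 18. All cells were exposed to 365 nm ultraviolet light, and their RNA was incubated with streptavidin beads. There were 2 libraries per arm, numbered 1 and 2 in both, and where 4 values of a gene follow each other they are those of miR-28CT 1, miR-28CT 2, miR-28BIO 1 and miR-28BIO 2. Both arms carried added miR-28-5p, so a difference between them concerns what the beads retained with and without the tag, and no cells without added miR-28-5p were compared. The values are bulk measurements, in which a lower level in the cells and a lower recovery on the beads cannot be told apart.

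The mitochondrial ribosome translates the few proteins encoded by mitochondrial DNA, which belong to the respiratory chain and ATP synthase. Its RNAs come from the mitochondrial genome, whereas all its proteins are encoded in the nucleus, translated in the cytosol and imported. The small subunit binds the mRNA and holds the decoding centre, and the large subunit forms the peptide bond and carries the exit tunnel. Cells with high energy demand, tumour cells among them, rely on this machinery for oxidative phosphorylation. A miRNA usually recognises an mRNA through its seed, the nucleotides from 2 to 8, pairing with a complementary stretch of the mRNA.

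The match searched for was AGCTCCT on the sense strand of the mRNA, the complement of nucleotides 2 to 8 of miR-28-5p. Its letters can be seen in the arm of the same hairpin that pairs with miR-28-5p, given here from RefSeq (GRCh38.p14, chr3:188688834-188688855, plus strand) with the match in capitals.
hsa-miR-28-3p: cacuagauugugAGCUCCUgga
The next 8 sequences come from 8 of the 12 members whose reference mRNA held AGCTCCT, and they are shown because the comparison of members with and without a seed match rests on them. Each is 27 bases of the mRNA strand from the canonical GENCODE 44 transcript on hg38, with the match in capitals. MRPL11 lies at chr11:66435367-66435393 (minus strand, 3′ UTR, exon 5), MRPL17 at chr11:6681404-6681430 (minus, 3′ UTR, exon 3), MRPL24 at chr1:156737367-156737393 (minus, 3′ UTR, exon 6) and MRPL28 at chr16:367652-367678 (minus, 3′ UTR, exon 6). MRPS18A lies at chr6:43671279-43671305 (minus, 3′ UTR, exon 6), MRPL37 at chr1:54216279-54216305 (plus, coding, exon 6), MRPL54 at chr19:3762749-3762775 (plus, coding, exon 1) and MRPS35 at chr12:27755313-27755339 (plus, coding, exon 8).
MRPL11: ccttctactaAGCTCCTgaccctggct
MRPL17: ctccaggataAGCTCCTtcctcttggt
MRPL24: ggggcagagcAGCTCCTccccaacttc
MRPL28: gtgaccacacAGCTCCTccatgcctga
MRPS18A: gacagctgtgAGCTCCTtactgtggga
MRPL37: gactcagaccAGCTCCTctatcagcat
MRPL54: ggggcctgggAGCTCCTaaaccccgcc
MRPS35: aataaagaagAGCTCCTtggtactaaa

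The deposited FPKM, a read density corrected for transcript length and library size, rested on about 17900000 and 13000000 reads in the miR-28CT and 17300000 and 14700000 in the miR-28BIO libraries. The members took 0.384% to 0.744% of the reads on NM_ records, with a median of 229 reads per tested member and library. FPKM was divided by a factor for each library (0.850 to 1.09), and this scaled FPKM was summed over the NM_ records of a gene. The epithelial markers KRT8, KRT18, KRT19, KRT7, EPCAM and CDH1 all passed the filter on low values, KLK3, KLK2 and TMPRSS2 were listed at 0 in the 4 libraries, and no marker of blood, endothelial, stromal or liver cells passed the filter.

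Of the 77 members, 73 reached a mean scaled FPKM of 0.5 and were tested, 46 of the large and 27 of the small subunit. The family stood lower in the miR-28BIO pull out. The log2 difference, miR-28BIO minus miR-28CT on log2(scaled FPKM + 0.1), was below 0 for 65 of the 73 members, against 56.2% of the 10380 genes tested, and for 58 without scaling and 63 with upper-quartile scaling. The median difference over members was -0.68 (quartiles -1.07 and -0.30), against -0.09 over all genes tested, a distance of -0.59 between these medians with the main factors and of -0.58 without scaling. It was -0.73 between the libraries numbered 1 and -0.66 between those numbered 2. Leaving out a single library moved the median over members between -0.93, without miR-28BIO replicate 2, and -0.44, without miR-28BIO replicate 1.

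No member passed an adjusted p of 0.05 in limma with Benjamini-Hochberg adjustment over all genes, as was so for the other genes tested (background 0% in each direction). At an unadjusted p under 0.05, 4 members were lower in miR-28BIO (background 0.742%) and 1 was higher (background 2.3%). For 1 gene with 2 libraries in each arm, the smallest two-sided p of an exact permutation test is 0.333. Both miR-28BIO libraries lay below both miR-28CT libraries in 27 members (background 12.9%) and above them in 2 members, MRPL15 and MRPL16 (background 12.4%). A member was lower in both same-numbered pairs in 58 of 73 cases (background 40.3%) and higher in both in 5 (background 30.6%). The difference was below -1 in 25 members (background 8.36%).

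**Figure D1:**
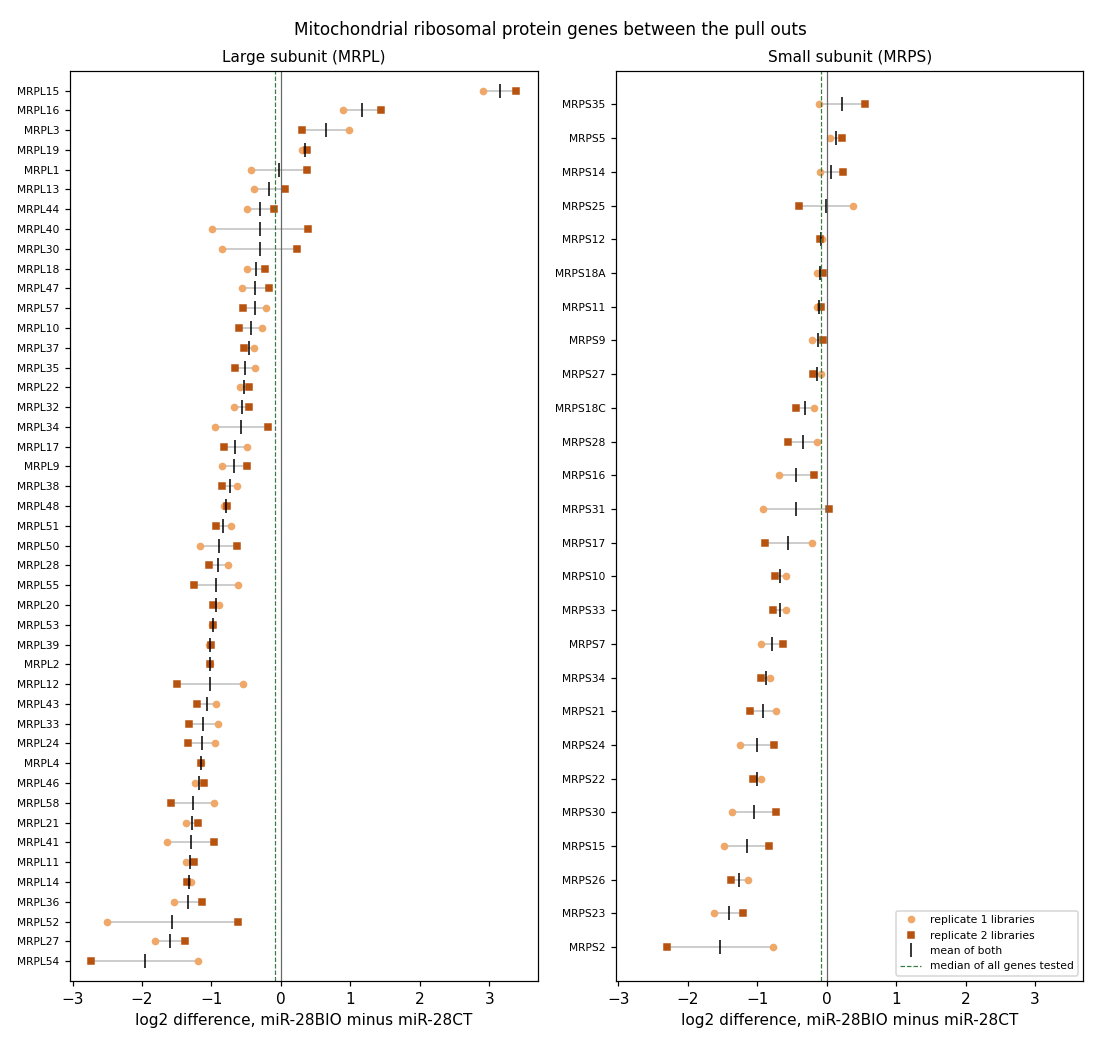
Log2 difference of scaled FPKM between miR-28BIO and miR-28CT for the 71 tested members above 0 in all 4 libraries, ordered within each subunit; circles are the libraries numbered 1, squares those numbered 2, black ticks their mean, and the dashed line the median of all genes tested (-0.09). Most members lie left of 0 in both pairs, while MRPL15 lies near 3 in both.

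MRPL15, a protein of the large subunit (chr8:54135221-54148514, 1 NM_ record), had the largest difference of the family. Its scaled FPKM was 7.45 and 7.08 in miR-28CT and 56.5 and 75.2 in miR-28BIO. The arms did not overlap, and the lower miR-28BIO library was far above both controls. The mean was 7.26 ± 0.260 in miR-28CT and 65.8 ± 13.2 in miR-28BIO (SD, n = 2 each), and about 248, 136, 1804 and 2095 reads stood behind the values of the 4 libraries. The log2 difference was 3.15 (SE 0.45), with an unadjusted limma p of 0.00167 and an adjusted p of 0.953. It was the 40th highest difference and the 18th smallest unadjusted p of the 10380 genes. The difference was 2.91 between the libraries numbered 1 and 3.39 between those numbered 2, and stayed between 2.94 and 3.35 when any single library was left out. MRPL15 is on the list of putative targets that the study drew from these libraries, so its height here is not independent evidence. Its canonical GENCODE 44 transcript of 1729 bases held neither AGCTCCT nor the shorter GCTCCT.

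MRPL16, another protein of the large subunit, was the other member with no overlap between arms in this direction. Its scaled FPKM was 12.7 and 15.1 in miR-28CT and 23.7 and 41.1 in miR-28BIO. The log2 difference was 1.16 (SE 0.51), and its transcript held 1 GCTCCT in the coding sequence and no AGCTCCT. MRPL3 was listed at 34.0, 14.02, 67.4 and 17.3 scaled FPKM. Each miR-28BIO library exceeded the control of its own number, but miR-28CT replicate 1 exceeded miR-28BIO replicate 2, and the log2 difference of 0.65 (SE 0.91) was smaller than its error. MRPL19 (10.6, 7.81, 13.2 and 10.1) and MRPS5 (13.5, 3.08, 13.9 and 3.58) were the remaining members higher in both pairs, with log2 differences of 0.34 and 0.13.

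**Figure D2:**
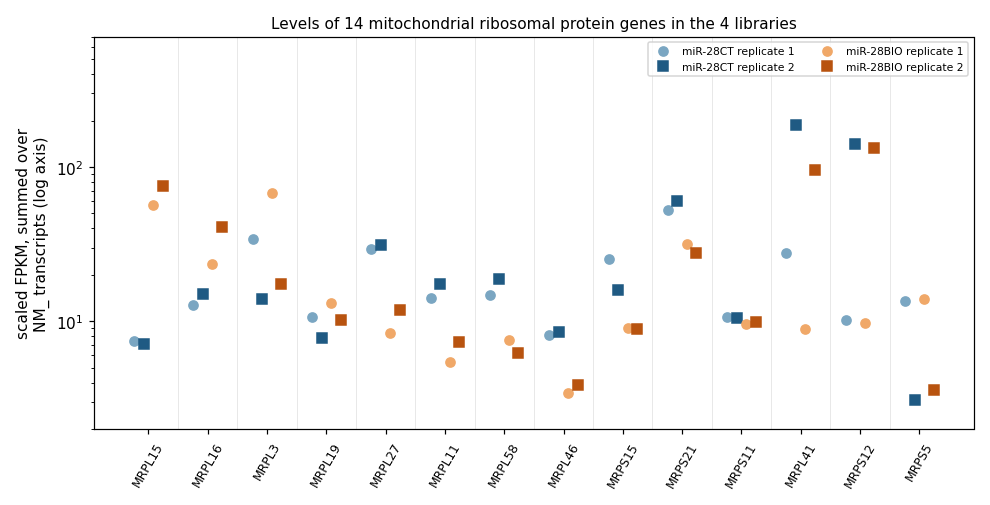
Scaled FPKM of 14 members in each library on a log axis, with miR-28CT in blue, miR-28BIO in orange, circles for replicate 1 and squares for replicate 2. The miR-28BIO points lie above both controls in MRPL15 and MRPL16 and below both in MRPL27, MRPL11, MRPL58, MRPL46, MRPS15, MRPS21 and MRPS11, whereas MRPL41, MRPS12, MRPL3 and MRPS5 separate by replicate number.

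The 4 members lower at an unadjusted p under 0.05 were all of the large subunit, and in each both controls lay above both miR-28BIO libraries. MRPL27 had scaled FPKM of 29.5 and 31.1 in miR-28CT and 8.36 and 11.9 in miR-28BIO, a log2 difference of -1.59 (SE 0.46). MRPL11, whose bacterial counterpart forms the site where translation GTPases bind, had 14.2 and 17.6 against 5.47 and 7.34 scaled FPKM, a log2 difference of -1.30 (SE 0.44). MRPL58, which carries a peptidyl-tRNA hydrolase activity that can release stalled chains, had 14.8 and 18.7 against 7.53 and 6.20 scaled FPKM, a log2 difference of -1.27 (SE 0.43). MRPL46 had 8.15 and 8.49 against 3.40 and 3.88 scaled FPKM, a log2 difference of -1.17 (SE 0.40). In limma their unadjusted p lay between 0.0219 and 0.0395, with an adjusted p of 0.9997 for each. Only MRPL27 and MRPL46 were at least 2-fold below the controls in every comparison of single libraries (background 0.829%), and MRPL15 was the only member at least 2-fold above them (background 2.2%).

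In the small subunit no member reached an unadjusted p of 0.05, and the median difference was -0.56 over 27 members against -0.81 over 46 of the large subunit. Whether the subunits differ was not tested, and their order turned without miR-28BIO replicate 1, to -0.51 for the small and -0.41 for the large subunit. MRPS15, which binds the small ribosomal RNA early in assembly in bacteria, had scaled FPKM of 25.5 and 15.99 in miR-28CT and 9.07 and 8.97 in miR-28BIO, a log2 difference of -1.15. MRPS23 (13.8 and 28.1 against 4.42 and 12.2) and MRPS30 (18.4 and 16.4 against 7.09 and 9.82) also had no overlap between arms, with log2 differences of -1.41 and -1.05. MRPS30, like MRPS18A, sits in the large subunit of the human mitochondrial ribosome despite its symbol. MRPS11 stood out for its even values of 10.6, 10.5, 9.65 and 9.90 scaled FPKM. Its arms did not overlap, yet its log2 difference was -0.11 and became 0.058 without scaling, so absence of overlap alone did not imply a large difference.

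When same-numbered libraries were treated as pairs, with the replicate number as a block in limma, 10 members passed an adjusted p of 0.05. MRPL15 was higher (adjusted p = 0.0333, background 2.58%), and MRPL27, MRPL14, MRPL11, MRPL21, MRPS23, MRPL4, MRPS26, MRPL36 and MRPL46 were lower (adjusted p from 0.0453 to 0.0482, background 2.2%). MRPL4 shows how the block acted: its scaled FPKM was 12.8 and 65.6 in miR-28CT and 5.72 and 29.4 in miR-28BIO, overlapping arms whose differences within the pairs were -1.14 and -1.15. At an unadjusted p under 0.05 the block gave 41 lower members (background 16.9%) and 3 higher (background 11%). These calls lay close to the threshold and moved with the settings chosen beside the block. With a variance prior that did not depend on the level, 0 members passed and MRPL15 had an adjusted p of 0.131, whereas 30 of 74 members passed, 2 higher and 28 lower, when noncoding records (NR_) were added to the sums, which brought MRPL49 into the test. Of the 73 members tested otherwise 29 passed, 2 higher and 27 lower. This was a setting under which more of all genes passed too (background 5.17% higher and 6.86% lower).

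The levels of the members spanned a 52.9-fold range of mean scaled FPKM, from 1.51 for MRPS31 to 80.0 for MRPL41, with a median of 13.7. The 5 highest were MRPL41, MRPS12, MRPL33, MRPS24 and MRPL53, and all 5 were lower in replicate 1 than in replicate 2 of the same arm. MRPL41, a protein also linked to growth arrest, had scaled FPKM of 27.8 and 187 in miR-28CT and 8.85 and 96.3 in miR-28BIO. MRPS12, a protein of the decoding centre, had 10.2 and 141 in miR-28CT and 9.70 and 132 in miR-28BIO. In both genes the replicate numbers stood apart by far more than the arms did, and the log2 differences between arms of -1.30 and -0.08 had SEs of 1.57 and 1.87. These SEs take in the distance between replicates. Within the same-numbered pairs MRPL41 was lower by -1.64 and -0.96 (adjusted p = 0.0613 in limma with the block). The pairs of MRPS12 differed by -0.07 and -0.09 (adjusted p = 0.775 in limma with the block). Without scaling the difference of MRPS12 was 0.089. MRPL33 (47.6 and 117 against 25.2 and 46.5) was the only gene of the 5 whose arms did not overlap, with a log2 difference of -1.12 (SE 0.71) that ran from -1.77 to -0.47 when 1 library was left out.

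The distance between replicates moved with base composition. The log2 difference of replicate 2 minus replicate 1 correlated across the 73 members with the GC content of the canonical transcript, with Pearson's r of 0.552 in miR-28CT and 0.518 in miR-28BIO (Spearman's rho 0.685 and 0.618). Over 10301 genes with a canonical transcript the same r was 0.623 and 0.582. These are descriptions across genes that share the 4 libraries, and genes are not independent replicates. In the 25 members with the highest GC content (51.9% to 66.7%) the median distance was 1.91 in miR-28CT and 1.66 in miR-28BIO, and in the 25 with the lowest (35.0% to 44.6%) it was -0.46 and -0.37. The median difference between arms was -1.02 in the former, -0.35 in the latter and -0.67 in the 23 members between them. Both replicate 2 libraries exceeded both replicate 1 libraries in 27 members (background 34.5%) and lay below them in 14 (background 33.4%). MRPL54 and MRPS2, both of high GC content, were examples of wide replicate distances. MRPL54 had 7.06, 86.0, 3.03 and 12.9 and MRPS2 had 11.5, 96.0, 6.63 and 19.4 scaled FPKM. Their log2 differences of -1.96 and -1.54 were among the most negative of the family and were -0.17 and -0.01 without miR-28CT replicate 2, which unbalances the pairs. Within the same-numbered pairs both genes were lower both times, by -1.19 and -2.73 for MRPL54 and by -0.78 and -2.30 for MRPS2, with adjusted p = 0.0761 and 0.107 in limma with the block.

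**Figure D3:**
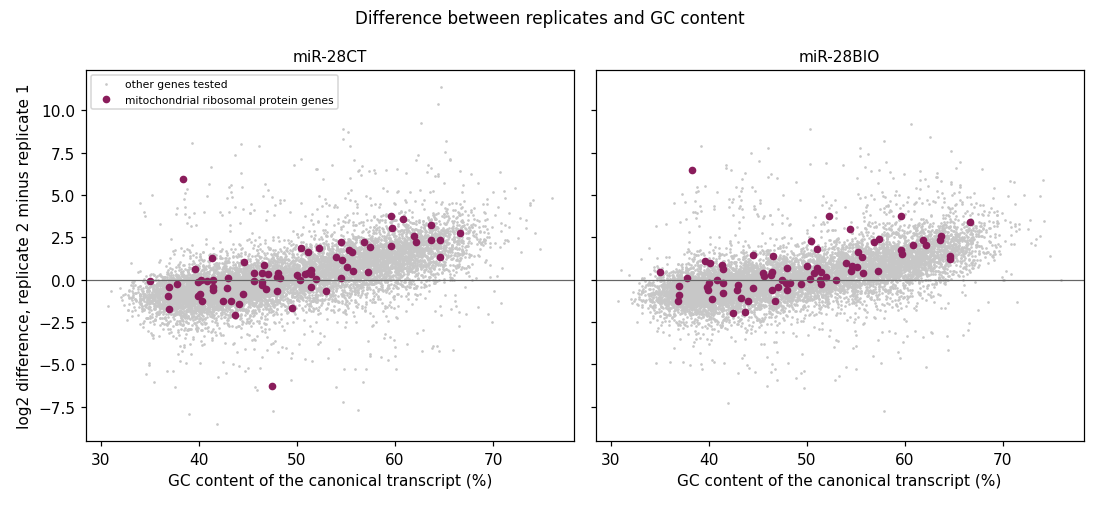
Log2 difference of scaled FPKM between replicate 2 and replicate 1 against the GC content of the canonical transcript, for miR-28CT and miR-28BIO; purple points are members and grey points other genes tested. In both arms members follow the cloud of other genes upward, with medians of 1.91 and 1.66 over the 25 members of highest GC.

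Members are short mRNAs, with a median canonical length of 1218 bases against 3383 over all genes, and the difference between arms also moved with length. Over 73 members length and difference had r = 0.382 and rho = 0.520. Among members of up to 1000 bases the median log2 difference was -1.07 (25 members), against -0.90 over all 631 tested genes of that length. Above that and up to 1500 bases it was -0.79 (21 members) against -0.59, up to 2500 bases -0.41 (14 members) against -0.32, up to 4000 bases -0.44 (7 members) against -0.11, and above 4000 bases -0.16 (6 members) against 0.12. The medians of members lay below those of all genes in each of the 5 length classes, and in each by less than the -0.59 between the medians over all lengths. The classes follow the canonical transcript, and the measured RefSeq record was much shorter in some members. Examples are MRPS23 (5609 against 1492 bases), MRPL42 (15557 against 3139) and MRPL50 (3336 against 1021), whereas MRPL19 (7825 against 7827), MRPL30 and MRPS25 had records of like length. The classes above 2500 bases therefore also hold members measured on short records. What GC content and length contributed to the lower level of the family was not tested.

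**Figure D4:**
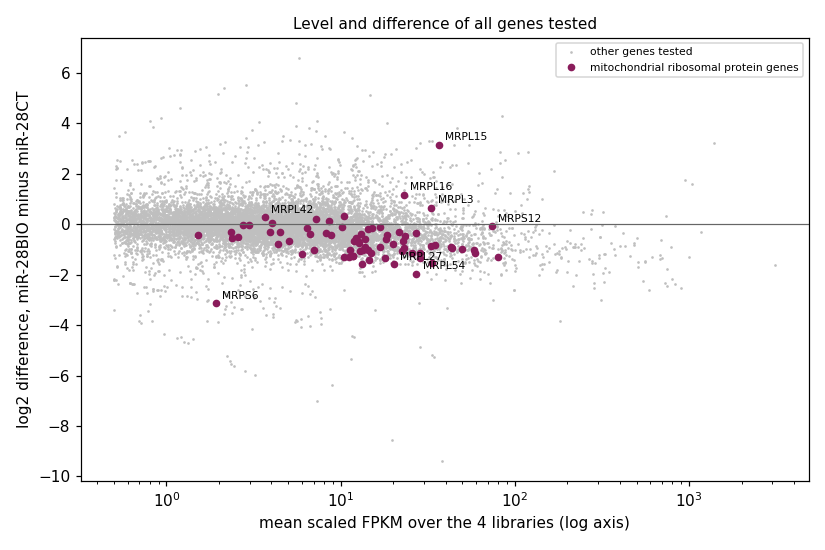
Mean scaled FPKM over the 4 libraries (log axis) against the log2 difference, miR-28BIO minus miR-28CT, for all genes tested (grey) and the 73 members (purple). Members concentrate below 0 between about 1.51 and 80.0 scaled FPKM, with MRPL15 at 3.15 apart from the rest.

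For several members the records themselves differed between libraries. MRPL42 was listed through its mRNA record at 0, 5.97, 0 and 8.75 scaled FPKM. Its noncoding record NR_038160 held 20.5, 3.89, 16.2 and 0, so the mRNA record was at 0 exactly where the noncoding record was highest. With both kinds of record summed, the log2 difference of MRPL42 turned from 0.27 to -0.25. MRPL49 was listed at 0 in its mRNA record in all 4 libraries, while NR_037568 held 14.02, 18.0, 13.0 and 9.95 scaled FPKM.

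MRPS6 was listed at 7.69 scaled FPKM in miR-28CT replicate 1 and at 0 in the other 3 libraries, so no fold is given. Its exons overlap those of SLC5A3 on the same strand. MRPS18B, 1 of 3 related genes with MRPS18A and MRPS18C, was listed at 0 in all of its 7 records, 6 of them on alternate copies of its chromosome 6 region. MRPL23 (deposited FPKM of 0.190, 0.105, 0 and 0.689) and MRPL45 (0.236, 0.349, 0.113 and 0.0238), a protein near the exit tunnel that anchors the ribosome to the inner membrane, were below the filter. A listed 0 in these files says only that the estimate was 0, and its cause was not tested. Other members of the same ribosome were measured in every library.

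At the level of single records, 89 of the 124 were tested, 28 were listed at 0 throughout, and 0 passed an adjusted p of 0.05 with or without the block (limma, background 0%). At an unadjusted p under 0.05, 3 were lower (background 1.49%) and 1 was higher (background 2.09%). Both miR-28BIO libraries were below both controls in 31 records (background 12%) and above them in 4 (background 11.5%). Among 13 genes with several tested records, 9 had records of both signs. MRPS35 was listed through NM_001190864 in miR-28CT replicate 1 alone (8.83 scaled FPKM) and through NM_021821 in the other 3 libraries (4.82, 8.18 and 7.08), giving record differences of -3.24 and 3.46 where the summed gene had 0.22. MRPL55 was split likewise, with NM_181465 at 9.83, 61.4, 0 and 16.4 and NM_181464 at 1.82, 47.3, 7.58 and 25.03, and its record differences of -4.26 and 0.54 stood beside -0.93 for the gene. In MRPL52 record NM_181306 was at 0 in miR-28BIO replicate 1 and at 7.30, 8.83 and 6.21 in the other 3 libraries, a record difference of -3.35. The differences of both MRPS35 records, of NM_181465 and of NM_181306 include a library at 0. Their sizes therefore depend on the 0.1 added before the log and are not measured folds. In MRPL43 and MRPL47 the more abundant record was lower in miR-28BIO (-1.20 and -0.83). The minor record of each was listed at 0 in 1 control library, with 1.28, 0, 1.33 and 1.59 scaled FPKM for MRPL43 and 0, 3.34, 2.55 and 5.73 for MRPL47, so no difference is given for them.

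**Figure D5:**
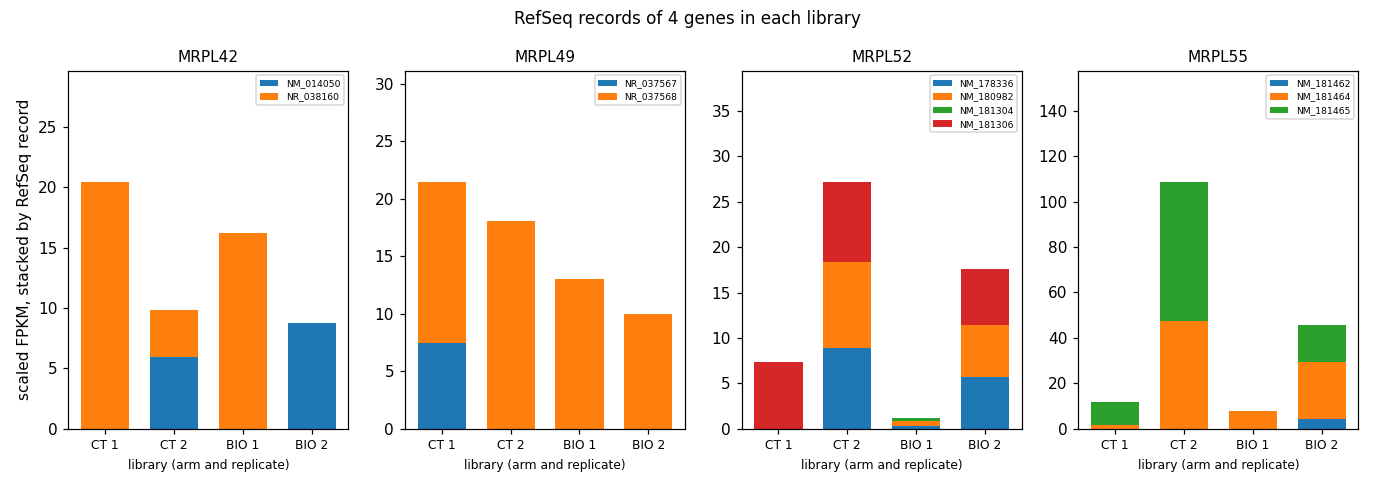
Scaled FPKM of the RefSeq records of MRPL42, MRPL49, MRPL52 and MRPL55, stacked in each library (bars start at 0, 1 bar per library, no error bars). The record that holds the signal changes between libraries in MRPL52, MRPL55 and MRPL42, where the mRNA record (blue) is at 0 in both replicate 1 libraries. In MRPL49 the noncoding record NR_037568 is the highest in every library.

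Members with a match to the seed were mostly lower in the miR-28BIO pull out, like those without one. AGCTCCT stood in the 3′ UTR of 7 members (9.59% of 73, against 15.5% of 10301 genes) and in the coding sequence of 5 (6.85% against 19.7%), in all 12 members, or 16.4% against 31.7%. Their regions are shorter than usual, with a median 3′ UTR of 453 bases against 1355. Of the 12 members with a match 10 were lower in miR-28BIO, and their median log2 difference was -0.59 against -0.73 over the 61 without, a contrast that was not tested. Over the 10301 genes the medians were 0.08 with a match and -0.17 without. MRPL11, MRPL24 and MRPL28, with a match in the 3′ UTR, had log2 differences of -1.30, -1.14 and -0.90. MRPL54 and MRPL12, with one in the coding sequence, had -1.96 and -1.02. MRPL17 (-0.66), MRPL35 (-0.51), MRPL37 (-0.46), MRPL44 (-0.30) and MRPS18A (-0.10, or 0.068 without scaling) were closer to 0. The 2 with values above 0 were MRPS35 (0.22) and MRPL42 (0.27), whose 2 matches lie in a long 3′ UTR outside its RefSeq record. A match in the reference mRNA is a description and not a binding site.

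The rest of the machinery was read from lists of genes named for their roles. Among 5 tested subunits with other names, GADD45GIP1 (-0.98), AURKAIP1 (-1.58) and CHCHD1 (-0.81) had log2 differences like those of the members, while DAP3 had -0.21 and PTCD3 0.20. The 14 mitochondrial translation factors had a median of -0.07, with 0 passing an unadjusted limma p of 0.05. TUFM, the elongation factor that brings aminoacyl-tRNA to the ribosome, had scaled FPKM of 22.7 and 29.3 in miR-28CT and 45.2 and 53.8 in miR-28BIO, arms that did not overlap and a log2 difference of 0.93 (SE 0.48). The 22 tested assembly and rRNA modification factors had a median of -0.10. NSUN4, an rRNA methyltransferase that also helps join the subunits, had 0.942 and 2.498 against 7.77 and 5.79 scaled FPKM, a log2 difference of 2.05 (SE 0.62), and was the only gene of these lists with an unadjusted p under 0.05. The 21 tested genes for charging mitochondrial tRNAs, which are aminoacyl-tRNA synthetases and the amidotransferase subunits QRSL1, GATB and GATC, had a median of -0.53, with 17 lower. None of these genes had an adjusted p under 0.05 in limma without the block, and with the block only AURKAIP1 did (adjusted p = 0.0498).

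Genes of related machinery were lower to a like or larger extent. The median log2 difference was -1.15 over 78 cytosolic ribosomal protein genes, of which 72 were lower, and -1.03 over 70 nuclear-encoded respiratory chain genes, of which 64 were lower. Both miR-28BIO libraries lay below both controls in 37.2% and 37.1% of them, against 37.0% of the members. With the replicate block in limma, 25 of the cytosolic ribosomal protein genes and 19 of the respiratory chain genes passed an adjusted p of 0.05 as lower and 0 as higher, where without it 0 passed in either family. Whether the 3 families differ was not tested. Members also share sequence and position with other genes: 35 of the 77 have a named pseudogene in GENCODE 44, 76 pseudogenes in all, 30 have exons overlapping a gene on the opposite strand and 18 a gene on the same strand. The counting is not stated to have used strand, so the values of these members are less certain.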

How the data were processed

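RNA from 2 miR-28CT and 2 miR-28BIO pull outs of DU-145 cells was sequenced as stranded total RNA in single reads of 50 bases. After FastQC 0.10.1 and cutadapt, alignment to hg38 by the authors used TopHat2 2.0.9, and abundance was estimated with Cufflinks 2.1.1. The deposited FPKM of 53209 records per library was the unit analysed. The deposited coverage, a signal of mean read depth per record, served only to estimate reads. Read counts were not used here, so no count model was fitted, and the authors' Cuffdiff comparison on reads was not repeated.

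The 52530 records marked OK in every library were kept. FPKM was divided by median-of-ratios factors from 11650 records above 0 throughout, summed over the NM_ records of a gene, and tested on log2(scaled FPKM + 0.1) where the mean reached 0.5, with limma 3.58.1 in R 4.3.3 (lmFit and eBayes with a trend, no block, Benjamini-Hochberg adjustment over 10380 genes or 15587 records). Fold changes of low genes are understated on this scale. Groups came from the labels. Same-numbered libraries were taken as pairs from the shared numbers in the labels and the 2 biological replicates of the methods. The differences between replicates correlated between arms with r of 0.746 over genes and 0.835 over members. On simulated data with 200 changed genes of 10380, 0 were called at the real spread with 194 in the right direction, and 199 at 0.05 of that spread, with 8 unchanged genes called.

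The members and gene lists were chosen with earlier results of these data known. Named members were MRPL15, the 6 largest differences each way, the 5 highest levels, members under the filter, up to 5 genes with records of both signs, the 4 smallest and the 4 largest distances between replicates and those with a seed match. Others were named after their values were seen. Alternatives covered scaling, pseudocount, filter, trend, the block, the choice of records and leaving out each library.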

Additional observations from a re-analysis of the deposited data

Results flagged for a closer look

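Noncoding records of 2 members, which were not summed into their genes, were above 0 in both miR-28BIO libraries and listed at 0 in both miR-28CT libraries. NR_028356 of MRPL30 had a mean scaled FPKM of 1.00 in miR-28BIO, with 1.17 and 0.838 in replicates 1 and 2. NR_051970 of MRPS2 had a mean of 3.37, with 0.762 and 5.98. The summed mRNA records of both genes had log2 differences below 0, of -0.30 and -1.54. With noncoding records added to the sums these differences were 0.27 for MRPL30, a change of sign, and -1.03 for MRPS2. The sum of MRPS2 also took in NR_051968, which was at 10.05 scaled FPKM in miR-28BIO replicate 2 alone, above the 5.98 of NR_051970 there.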

How the results depend on the processing

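The median over all members and over the large subunit stayed below 0 under every alternative run, and 52 to 66 of the members tested were lower. The median over all genes moved from -0.09 to 0.08 without scaling. The small-subunit median of -0.56 was -0.39 without scaling, -0.48 with upper-quartile factors and between -0.70 and -0.44 when 1 library was left out, and the large-subunit median of -0.81 then ran from -1.15 without miR-28CT replicate 1 to -0.41 without miR-28BIO replicate 1. At an adjusted p under 0.05 in limma, 0 members passed without a block and 10 with the replicate block. Settings chosen after seeing the data gave 26 with the block and a mean of at least 2 (where 5.76% of all genes passed as higher and 7.23% as lower), 9 with the block and a pseudocount of 1 (2.54% and 1.97%), 30 of 74 with the block and NR_ records (5.17% and 6.86%), and 0 with the block and no trend (0% and 0%). Members at an unadjusted p under 0.05 numbered 5, 2 without scaling, 44 with the block and 1 to 3 when 1 library was left out. Members with no overlap numbered 27 lower and 2 higher, and 35 to 54 and 2 to 9 when 1 library was left out, where fewer libraries have to separate and 28.9% to 38.7% of all genes lay below and 24.5% to 32.7% above. The difference turned from 0.27 to -0.25 for MRPL42 and from -0.30 to 0.27 for MRPL30 with NR_ records, to 0.058 for MRPS11, 0.089 for MRPS12 and 0.068 for MRPS18A without scaling, and to 0.077 for MRPS18A by its highest record. The cause was not tested. The sign of the log2 difference turned in 33 of the 73 members when 1 library was left out, which unbalances the pairs, and 22 of the 33 were lower in both same-numbered pairs. For the 18 of them given values above, the ranges were -2.21 to 0.16 for MRPL12, -1.90 to 0.10 for MRPL28, -0.33 to 1.62 for MRPL3, -3.01 to 0.42 for MRPL41, -2.96 to 3.51 for MRPL42, -0.73 to 0.13 for MRPL44, -3.45 to 0.32 for MRPL52, -2.09 to 0.12 for MRPL53, -2.54 to 0.68 for MRPL55, -1.97 to 1.81 for MRPS12, -0.37 to 0.16 for MRPS18A, -2.21 to 0.20 for MRPS24, -0.21 to 0.65 for MRPS35, -0.92 to 1.17 for MRPS5, -2.33 to 0.027 for MRPL4, -2.56 to 0.046 for MRPS26, -0.92 to 0.036 for MRPS31 and -0.62 to 0.0078 for MRPL30. Among members whose sign held, MRPS23 ran from -2.13 to -0.69 and MRPL24 from -1.73 to -0.55. Beside the calls given here and in the report, the replicate block changed no call of a named member. Depth limited the members least covered: 5 had under 30 reads in some library, and intervals from reads would cover counting error only.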
